A study of Mus musculus with 2 samples.

Results

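The genes described here are 10 endothelial identity and leukocyte adhesion genes of the mouse heart: Vwf, Pecam1, Egfl7, Cdh5, Emcn, Vcam1, Icam1, Icam2, Selp and Sele. They were chosen by symbol, and each symbol matched 1 of the 55401 gene identifiers counted. RNA was sequenced from hearts of C57BL/6 mice. All were labelled as having had TAC (transverse aortic constriction), an operation in which the aortic arch is tied narrower so that the left ventricle has to pump against a raised pressure. The library labelled TAC with dioscin came from mice also given dioscin, a plant steroidal saponin, with a treatment of 4 weeks named in the protocol. The library labelled TAC is taken as untreated from its label, although the protocol text naming dioscin is worded alike for both libraries. Both groups thus carry the constriction, and hearts without surgery were not analysed here. Each group had 1 library, the labels do not say how many hearts went into it, and the age and sex of the mice and the dose of dioscin are not given in the sources used here.

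Endothelial cells line the vessels and the chambers of the heart. They are held together by junction proteins such as VE-cadherin and PECAM-1, and they store von Willebrand factor and P-selectin in Weibel-Palade bodies, granules that fuse with the cell surface on activation. During inflammation selectins slow passing leukocytes, and the immunoglobulin-like proteins VCAM-1 and ICAM-1 then bind leukocyte integrins so that the cells arrest and cross the vessel wall. Transcription of Sele, Vcam1 and Icam1 is known to be induced by cytokines through NF-kB, whereas Cdh5 and Pecam1 are mostly constitutive in endothelium.

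Sequences are shown for the adhesion genes that had a promoter window in RefSeq, since these genes differed among themselves between the libraries, and for the microRNA carried by Egfl7. RefSeq windows on GRCm38.p6 were found for 5 of the 10 genes. Each printed stretch holds the 250 bases before the annotated start, 5′ to 3′, on the plus strand. Capitals mark matches to GGNNNTTCC, letters of the kind that NF-kB sites hold, and to CAGGAA, letters of the kind that ETS factors bind, each searched on both strands.
Icam1, chr9:21015690-21015939: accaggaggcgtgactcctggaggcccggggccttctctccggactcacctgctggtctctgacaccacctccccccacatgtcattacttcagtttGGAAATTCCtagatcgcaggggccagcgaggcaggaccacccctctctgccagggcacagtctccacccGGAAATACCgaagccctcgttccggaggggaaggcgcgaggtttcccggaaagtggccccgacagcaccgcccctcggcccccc
Sele, chr1:164047984-164048233: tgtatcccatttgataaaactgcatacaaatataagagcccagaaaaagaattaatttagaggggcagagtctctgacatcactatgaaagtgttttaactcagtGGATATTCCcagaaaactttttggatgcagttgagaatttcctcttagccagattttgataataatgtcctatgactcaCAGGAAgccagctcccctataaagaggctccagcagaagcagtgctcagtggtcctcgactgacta
Selp, chr1:164115014-164115263: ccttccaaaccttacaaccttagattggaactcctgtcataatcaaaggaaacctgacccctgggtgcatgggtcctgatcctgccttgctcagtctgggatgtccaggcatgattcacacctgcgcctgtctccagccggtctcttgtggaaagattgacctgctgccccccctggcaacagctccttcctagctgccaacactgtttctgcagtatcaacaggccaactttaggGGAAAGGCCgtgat
The Icam1 window held 2 matches to GGNNNTTCC, which begin 153 and 84 bases before the start. The Sele window held 1 match to GGNNNTTCC at 145 bases and 1 to CAGGAA at 66 bases before its start, and the Selp window held 1 match to GGNNNTTCC at 14 bases. The 2 patterns can share bases, but no printed matches do. Of 32851 promoter windows of this length, 15.7% hold GGNNNTTCC and 25.7% hold CAGGAA, so the matches describe the letters only. The mature microRNA in the Egfl7 gene, at chr2:26591402-26591423 on the plus strand, is shown with its seed, bases 2 to 8, in capitals.
mmu-miR-126a-3p: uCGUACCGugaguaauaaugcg

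The TAC with dioscin library (the dioscin library below) held 17612259 counts in genes and the TAC library 16782741. Counts were scaled with TMM factors and are given as CPM (the share of the scaled library size in parts per 10⁶). Levels of different genes are given per length, as CPM per kilobase (kb) of merged exon. With 1 library per group no test was possible and no difference below has a replicate check. Every ratio below has the dioscin library on top, and the 95% interval in parentheses after it is an exact one (Clopper-Pearson) that reflects the counting of reads alone. A gene is called higher or lower by a size rule: at least 1 CPM in 1 library, a ratio of at least 2 in either direction, and an interval that excludes 1. Whether reads were counted by strand is not given in the sources used here, and the library kit does not mark strand. Antisense genes opposite abundant heart genes held many counts: Gm13054, opposite Nppa, had 118950 in the dioscin library and 7152 in the TAC library, and Gm49540, opposite Mb, 83855 in the dioscin library and 69589 in the TAC library. If counting used strand, a gene's reads would be divided between it and its opposite strand, so the counts below would miss some of its reads and antisense counts would hold reads of the gene they overlap. This was not tested. In RNA of mixed heart tissue, fewer cells of a type and less RNA per cell cannot be told apart.

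By that rule 4 of the 10 genes were higher in the dioscin library (Selp, Vcam1, Vwf and Pecam1), 1 was lower (Egfl7), and 5 did not pass (Emcn, Icam1, Cdh5, Icam2 and Sele). All 10 reached 1 CPM in at least 1 library. Over the 15697 genes that did so, 19.3% were called, 10.5% as higher and 8.77% as lower. With a limit of 3-fold, 3 of the 10 genes were called (Selp, Vcam1 and Vwf, all higher), against 8.5% of all genes, 4.98% as higher and 3.53% as lower. With 1.5-fold the same 5 genes were called, against 38.2% of all genes, 20.3% as higher and 17.9% as lower, and with a minimum of 5 CPM 4 were called, against 14.6% of 11897 genes. The median log2 ratio of the 10 genes was 0.48, against 0.01 over all genes tested, whose middle 50% ran from -0.46 to 0.49. The genes thus spread to both sides: the 10 log2 ratios ran from -1.46 for Egfl7 to 2.62 for Selp. Markers of atrial muscle, mesothelium and fat also differed between these libraries, as given further on, and their part in the results on the 10 genes was not tested.

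**Figure D1:**
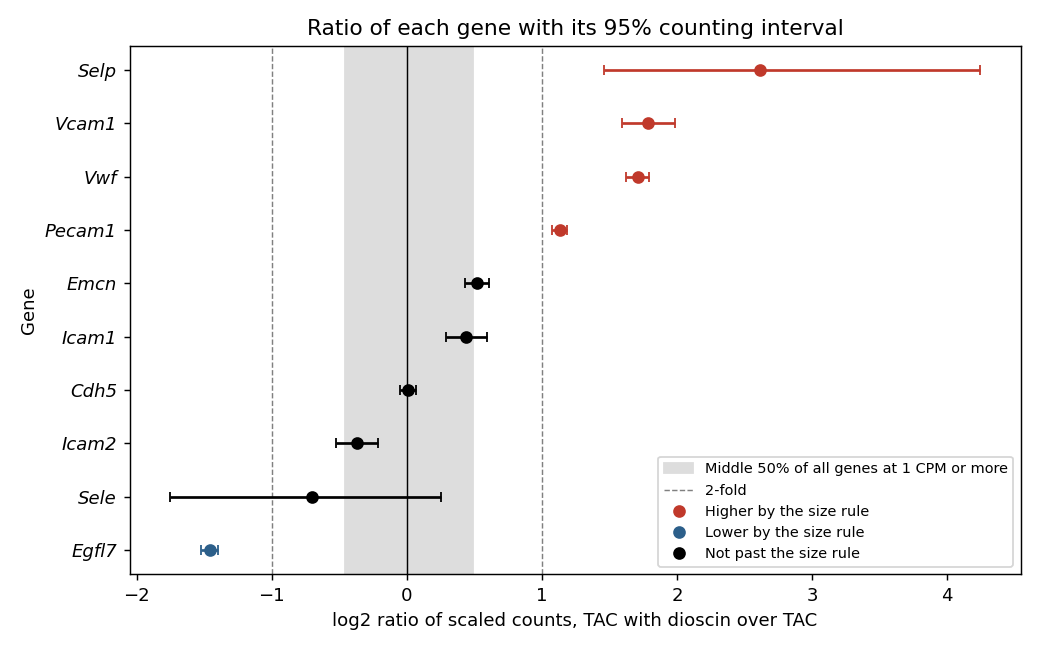
log2 ratio of scaled counts, TAC with dioscin over TAC, for each of the 10 genes, with 95% counting intervals (1 library per group). The grey band holds the middle 50% of all genes at 1 CPM or more and dashed lines mark a ratio of 2 in either direction. Selp, Vcam1, Vwf and Pecam1 lie to the right of the upper line, Egfl7 to the left of the lower line, and Cdh5 at 0.01.

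The identity genes differed among themselves: 2 of the 6 were higher, 1 was lower and 3 did not pass, with a median log2 ratio of 0.27. Cdh5 encodes VE-cadherin, the adhesive protein of endothelial adherens junctions (chromosome 8, 104101625 to 104144511, plus strand). It had 4112 counts in the dioscin library and 4122 in the TAC library, or 57.2 and 56.8 CPM per kb. Its ratio was 1.01 (0.964 to 1.05), a log2 ratio of 0.01 that turned to -0.07 with scaling by total counts and to -0.20 with scaling by counts outside mitochondrial genes. Among the 10 genes Cdh5 differed least.

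Pecam1 encodes PECAM-1 (CD31), an immunoglobulin-like protein of endothelial contacts that platelets and leukocytes also carry (chromosome 11, 106654217 to 106750628, minus strand). It had 8290 counts in the dioscin library and 3814 in the TAC library, which is 77.8 against 35.5 CPM per kb. The ratio was 2.19 (2.11 to 2.28). It stands just above the limit of the size rule and was 1.90 when libraries were scaled by counts outside mitochondrial genes, which ends the call. Those genes held 25.5% of the counts in the dioscin library and 31.6% in the TAC library. Within a library, where scaling plays no part, there were 2.02 reads of Pecam1 per read of Cdh5 in the dioscin library and 0.925 in the TAC library.

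Emcn encodes endomucin, a sialomucin of venous and capillary endothelium that hinders leukocyte attachment (chromosome 3, 137341067 to 137432185, plus strand). It had 2551 counts in the dioscin library and 1792 in the TAC library, and 27.6 against 19.2 CPM per kb. Its ratio of 1.44 (1.35 to 1.53) excluded 1 in counting error but did not pass the size rule. Icam2 encodes ICAM-2, a constitutive endothelial ligand of the leukocyte integrin LFA-1 (chromosome 11, 106377656 to 106388075, minus strand). It had 576 counts in the dioscin library and 750 in the TAC library, 17.7 and 22.8 CPM per kb, with a ratio of 0.775 (0.694 to 0.865). Pecam1 and Icam2, which lie on the same chromosome, therefore had ratios on opposite sides of 1.

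Egfl7 encodes a secreted protein with EGF-like domains that endothelial cells deposit in their matrix, and its gene also carries miR-126 (chromosome 2, 26580014 to 26593120, plus strand). It had 2657 counts in the dioscin library and 7371 in the TAC library, or 43.3 and 119 CPM per kb. It was 2.75-fold lower in the dioscin library (2.63 to 2.88). Of the genes tested, 4.36% had a ratio as low. In the TAC library Egfl7 made up 44.3% of the summed CPM per kb of the 10 genes, whereas in the dioscin library it made up 16.8%.

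The neighbouring genes Agpat2 and Notch1 did not pass the rule. Agpat2, an enzyme of lipid synthesis whose exons overlap 1.79% of the exonic length of Egfl7 on the opposite strand, had 386 counts in the dioscin library and 384 in the TAC library. Notch1, a receptor gene 63351 bases away, had a ratio of 0.826 (0.766 to 0.890). The annotated Mir126b hairpin, which overlaps exonic bases of Egfl7 on the opposite strand, had 23 counts in the dioscin library and 61 in the TAC library, a ratio of 0.386 (0.225 to 0.624) beside the 0.364 of Egfl7. The library kit does not mark strand, so reads there cannot be told from Egfl7 reads, and they do not measure mature miR-126.

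Vwf encodes von Willebrand factor, which captures platelets and gives Weibel-Palade bodies their shape (chromosome 6, 125546774 to 125686679, plus strand). It had 4475 counts in the dioscin library and 1381 in the TAC library, or 16.3 and 4.98 CPM per kb. It was 3.27-fold higher in the dioscin library (3.08 to 3.47), a ratio that 4.30% of the genes tested reached. There were 1.09 reads of Vwf per read of Cdh5 in the dioscin library and 0.335 in the TAC library. The nearest genes at 1 CPM or more, Gm26728 (37639 bases away) and Cd9 (51983 bases away), a tetraspanin gene, were also higher, at 5.01-fold (3.72 to 6.95) and 2.01-fold (1.85 to 2.18).

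**Figure D2:**
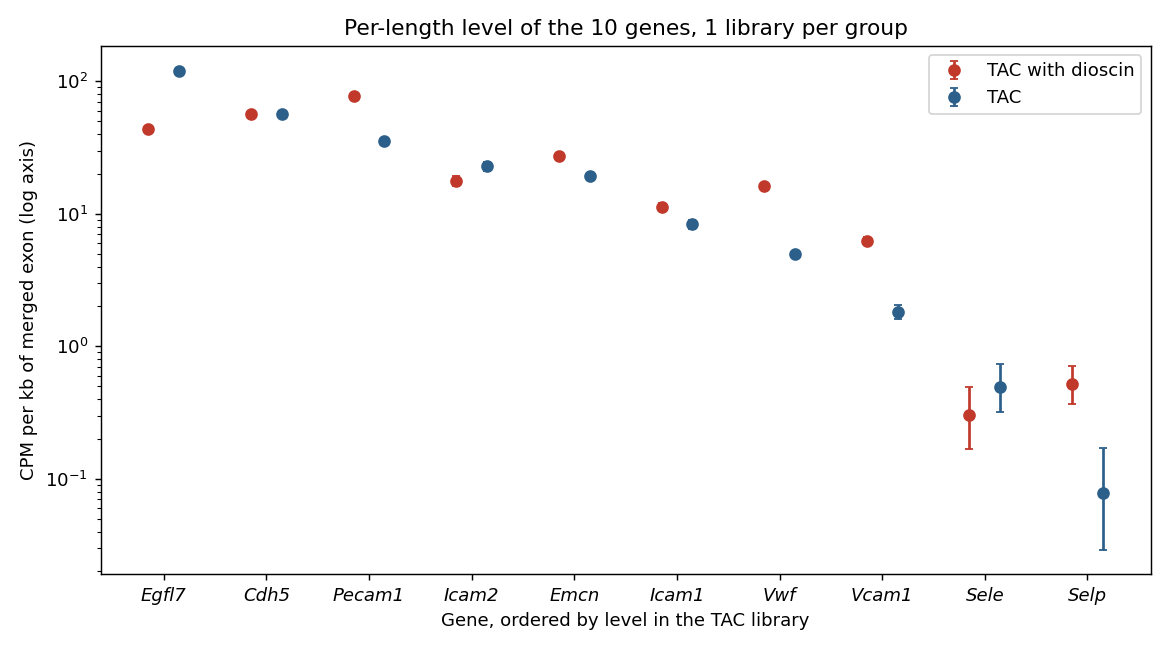
Level of each gene as CPM per kb of merged exon on a log axis, in the TAC with dioscin library (red) and the TAC library (blue), with 95% Poisson intervals of the counts. Egfl7 is the highest in the TAC library at 119 and stands at 43.3 in the dioscin library, where Pecam1 is the highest at 77.8. Selp and Sele lie below 1 in both libraries.

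Among the adhesion genes, Vcam1 and Selp were higher in the dioscin library, and Icam1 and Sele did not pass the size rule. Vcam1 encodes VCAM-1, the ligand of the leukocyte integrin VLA-4 (chromosome 3, 116109949 to 116129688, minus strand). It had 954 counts in the dioscin library and 279 in the TAC library, or 6.28 and 1.82 CPM per kb. The ratio was 3.45 (3.02 to 3.96), reached by 3.92% of the genes tested. An antisense gene that covers 0.688% of its exonic length, Gm43109, had 34 counts in the dioscin library and 4 in the TAC library.

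Icam1 encodes ICAM-1, the inducible ligand of LFA-1 and Mac-1 (chromosome 9, 21015985 to 21028817, plus strand). It had 845 counts in the dioscin library and 628 in the TAC library, or 11.3 and 8.34 CPM per kb, with a ratio of 1.36 (1.22 to 1.51). The antisense gene Gm47079 covers 11.7% of its exonic length and had 229 counts in the dioscin library and 280 in the TAC library. With those counts added the ratio was 1.19 (1.09 to 1.30). That sum can hold reads of Gm47079 itself and is not a measure of Icam1 alone. There were 1.13 reads of Vcam1 per read of Icam1 in the dioscin library and 0.444 in the TAC library, so the balance of these 2 ligands differed 2.54-fold whatever the scaling.

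The selectin genes were close to the limit of this depth. Selp encodes P-selectin, which endothelium and platelets store in granules (chromosome 1, 164115264 to 164150026, plus strand). It had 39 counts in the dioscin library and 6 in the TAC library, or 0.516 and 0.0787 CPM per kb. The ratio was 6.13 with a wide interval (2.76 to 19.0). Opposite-strand non-coding genes overlap 9.93% and 4.21% of its exonic length. With their counts added the ratio was 2.68 (1.60 to 4.80), less than that of Selp alone by more than 1.5 times. All added counts came from Gm16548, 15 in the dioscin library and 14 in the TAC library, where Selp had 6. The sum can thus hold that gene's own reads and is not a measure of Selp alone. With a minimum of 5 CPM Selp was not tested.

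Sele encodes E-selectin, which endothelium makes after cytokine stimulation (chromosome 1, 164048234 to 164057677, plus strand). It had 15 counts in the dioscin library and 25 in the TAC library, or 0.301 and 0.497 CPM per kb. Its ratio of 0.613 had an interval that includes 1 (0.297 to 1.19), so a difference was not detectable at this depth. Selp and Sele lie 57587 bases apart on the same strand.

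The order of the levels per length differed between the libraries. In the dioscin library it ran Pecam1, Cdh5, Egfl7, Emcn, Icam2, Vwf, Icam1, Vcam1, Selp and Sele, and the counting intervals of 2 neighbouring pairs overlapped, Icam2 with Vwf and Selp with Sele. In the TAC library the order was Egfl7, Cdh5, Pecam1, Icam2, Emcn, Icam1, Vwf, Vcam1, Sele and Selp, with no overlap between neighbours. The CPM per kb summed over all 10 genes was nearly equal, 258 in the dioscin library and 269 in the TAC library. Without division by length the sum was 1432 CPM in the dioscin library and 1168 in the TAC library, a ratio of 1.23.

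**Figure D3:**
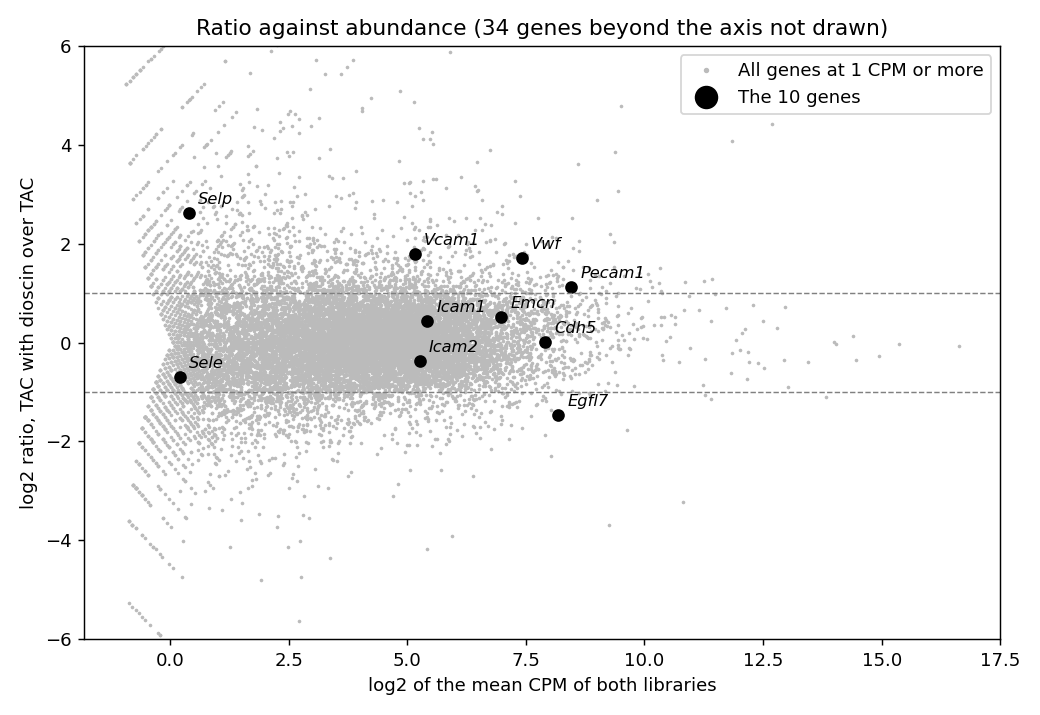
log2 ratio, TAC with dioscin over TAC, against the log2 of the mean CPM of both libraries, for all 15697 genes at 1 CPM or more (grey) and the 10 genes (black, named). 34 genes beyond a log2 ratio of 6 in either direction are not drawn. Selp and Sele lie at low abundance, where ratios of all genes spread widely, and Vwf, Pecam1 and Egfl7 at high abundance, outside the dashed 2-fold lines.

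How far these ratios stand from those of other genes depends on abundance. Each gene was set beside the genes at 1 CPM or more whose geometric mean CPM of both libraries lay within 1.5-fold of its own. The share called was 47.8% around Selp (584 of 1222) and 38.8% around Sele. It was 9.39% around Vcam1 (309 of 3292), 13.3% around Vwf, 18.4% around Pecam1 and 16.7% around Egfl7. Around Selp and Sele, genes with a geometric mean below 1 CPM passed the filter only if their libraries differed. The shares and ranges around Selp and Sele are thus partly set by the filter. Selp itself reached 1 CPM only in the dioscin library (2.28 against 0.347 in the TAC library). The central 90% of log2 ratios ran from -2.05 to 2.52 around Selp, and the 2.62 of Selp lay just above it. Around Vcam1 that range was -0.88 to 1.08, and Vcam1 had 1.78. Vwf at 1.71 and Egfl7 at -1.46 also lay outside the range around them (-0.92 to 1.26 and -0.90 to 1.42). Pecam1 at 1.13 lay inside the range of -0.89 to 1.52 around it, as did the 5 genes that did not pass the rule.

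Other endothelial genes were read from lists. All 19 further pan-endothelial genes of the list reached 1 CPM in at least 1 library. Of them 2 were higher and none was lower in the dioscin library, with a median log2 ratio of -0.28. That is 10.5% of the list, against 19.3% of all genes called, 10.5% as higher and 8.77% as lower. These shares of all genes also stand beside the counts of every list below. Ratios were below 1 for 13 of the 19 and above 1 for 6. The lowest were those of Kdr, the receptor VEGFR-2, at 0.553 (0.528 to 0.579), and Myct1 at 0.559 (0.510 to 0.613), both named after their values were seen. Eng, the TGF-beta co-receptor endoglin and the most abundant of them per length, had 423 CPM in the dioscin library and 254 in the TAC library, a ratio of 1.67 (1.61 to 1.73). S1pr1, the sphingosine-1-phosphate receptor that stabilises the endothelial barrier, was 2.33-fold higher (2.20 to 2.46), and Clec14a, an endothelial lectin, 2.15-fold (1.88 to 2.46). Taken relative to this list's median, the log2 ratio of Vwf was 1.99, of Pecam1 1.41 and of Egfl7 -1.18, which keeps each call.

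Lists for parts of the vascular tree were not alike. Of the capillary genes 42.9% were called, of the arterial 37.5% and of the venous 66.7%, against 19.3% of all genes. Of 7 capillary genes 2 were higher and 1 lower (median 0.76): Car4, a carbonic anhydrase, was 2.70-fold higher (2.50 to 2.92), Tcf15, a transcription factor of capillary endothelium, was 3.53-fold lower (3.07 to 4.09), and Rgcc, the most abundant, had a ratio of 1.70 (1.56 to 1.84). Of 8 arterial genes 2 were higher and 1 lower (median 0.22), with the kinase gene Bmx 3.53-fold higher (2.92 to 4.31) and the Notch ligand gene Dll4 3.65-fold lower (3.21 to 4.18). Of 3 venous genes at 1 CPM or more, 2 were higher, Lrg1 at 3.88-fold (3.22 to 4.74) and Nr2f2, the venous identity factor, at 2.24-fold (1.97 to 2.55). Ephb4, a receptor of venous endothelium and the most abundant of the 3 per length, had a ratio of 1.48 (1.36 to 1.60).

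Genes of endocardium, the endothelium that lines the chambers, had the highest median of the endothelial lists, 3.60, with 3 of the 4 at 1 CPM or more higher in the dioscin library. Cytl1, a secreted cytokine-like protein, had 84.7 CPM in the dioscin library and 4.86 in the TAC library, 17.3-fold higher (14.0 to 22.0). Npr3, the natriuretic peptide clearance receptor, had 200.8 CPM in the dioscin library and 13.5 in the TAC library, 14.9-fold higher (13.0 to 17.1). Of 6 lymphatic genes at 1 CPM or more, 4 were higher (median 1.85), among them Lyve1, a hyaluronan receptor that some macrophages share, at 9.67-fold (8.10 to 11.7), and Pdpn, podoplanin, which mesothelium also makes, at 5.07-fold (3.70 to 7.20). Prox1, the factor that sets lymphatic identity, had a ratio of 0.813 (0.719 to 0.918), and Flt4, the receptor VEGFR-3, 0.776 (0.684 to 0.879). Both were named after their values were seen. Ccl21a of that list had 0 counts in both libraries.

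Vwf and Selp encode cargo of the same granule. Of 12 other genes of Weibel-Palade bodies and their release, 3 were higher and none lower (median 0.31). That is 25% of the list, against 19.3% of all genes called. Rab27a, a GTPase that anchors the granules, was 3.83-fold higher (2.90 to 5.20), Edn1, the vasoconstrictor endothelin-1, 3.10-fold (2.36 to 4.15) and Myrip, a partner of Rab27a, 3.04-fold (2.25 to 4.23). Angpt2, another stored protein, had a ratio of 0.588 (0.449 to 0.762), and Stx4a, a fusion protein and the most abundant of the list per length over the mean of both libraries, 0.758 (0.703 to 0.818). Myrip and Angpt2 were named after their values were seen.

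Junction genes had 1 of 15 higher and none lower (median 0.14), or 6.67% called against 19.3% of all genes. The higher gene was Ocln, occludin, with 55 counts in the dioscin library and 3 in the TAC library, a ratio of 16.0 (6.01 to 92.4). Epithelium and mesothelium make it as well. Ctnna1, alpha-catenin, which links cadherins to actin, had a ratio of 1.54 (1.48 to 1.60).

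**Figure D4:**
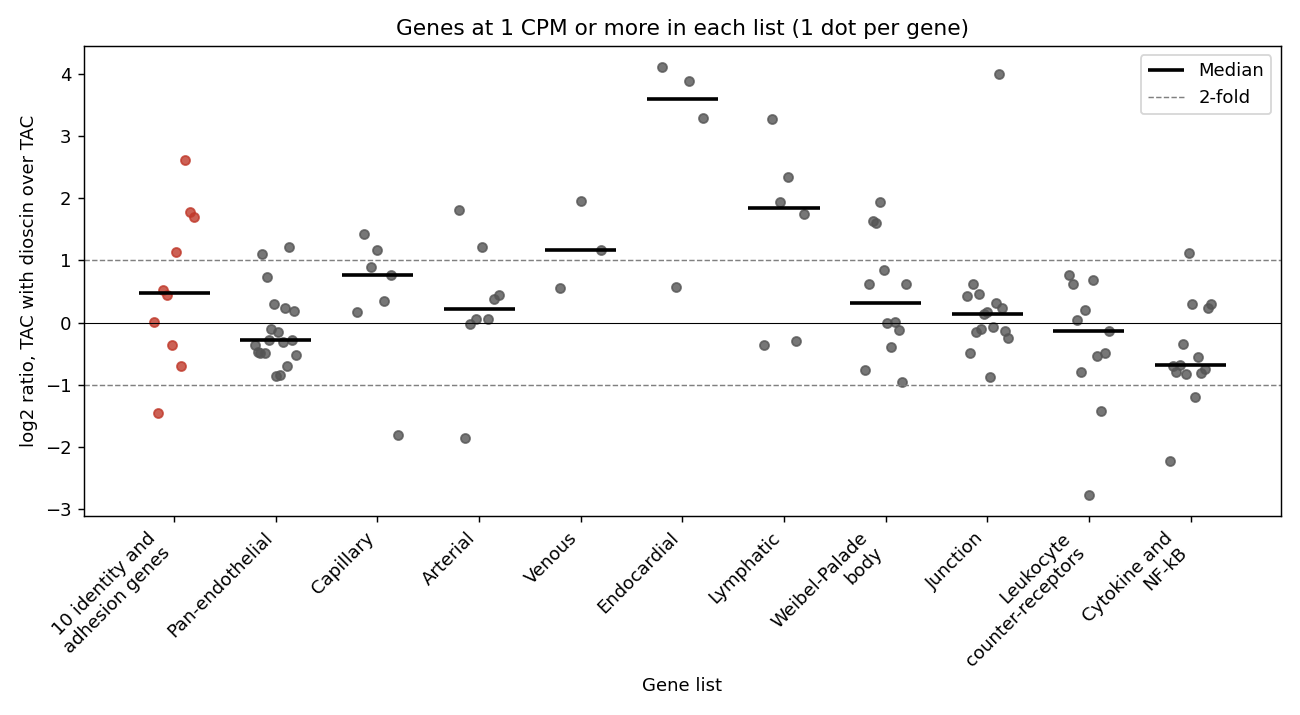
log2 ratio, TAC with dioscin over TAC, of genes at 1 CPM or more in each list (1 dot per gene), with the median of each list as a bar and dashed lines at 2-fold. The 10 identity and adhesion genes are in red. Endocardial and lymphatic medians stand at 3.60 and 1.85, while the pan-endothelial median is -0.28 and that of the cytokine and NF-kB list -0.69.

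Lists were also read for leukocyte partners of the adhesion molecules and for cytokine and NF-kB genes, which include inhibitors of NF-kB. The shares of these lists past the rule, 18.2% and 21.4%, were near the 19.3% of all genes. Of 11 counter-receptor genes at 1 CPM or more, 2 were lower in the dioscin library and none was higher (median -0.13). Itgax, the integrin chain CD11c, was 6.87-fold lower (4.03 to 13.4), with 14 counts in the dioscin library and 100 in the TAC library, and Itgb7, a chain of an integrin that binds VCAM-1, 2.69-fold lower (1.85 to 4.04). Itgb1, the beta chain of VLA-4 and the most abundant of the list, had a ratio of 1.62 (1.54 to 1.69). Itga4, the alpha chain of VLA-4, had a ratio of 1.03 (0.789 to 1.33) beside the 3.45 of its ligand gene Vcam1. Itgb2, the common chain of LFA-1 and Mac-1, had 0.691 (0.541 to 0.878). Itga4 and Itgb2 were named after their values were seen.

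Of 14 cytokine and NF-kB genes at 1 CPM or more, 1 was higher and 2 were lower, with a median log2 ratio of -0.69. Il1b, interleukin-1 beta, which induces adhesion molecules, was 4.72-fold lower (2.80 to 8.87), with 16 counts in the dioscin library and 78 in the TAC library. Nfkbia, the inhibitor of NF-kB that NF-kB and glucocorticoids induce, was 2.18-fold higher (1.998 to 2.38). Nfkbie, a related inhibitor, was 2.31-fold lower (1.62 to 3.38), and was named after its value was seen. With scaling by counts outside mitochondrial genes 6 genes of this list passed the rule.

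Among 15 transcription factors of endothelium 1 was higher and 1 lower (median -0.27), or 13.3% called against 19.3% of all genes. Klf4, a shear-responsive factor, was 2.41-fold higher (2.22 to 2.62), and Ets2 2.15-fold lower (2.02 to 2.30). Klf2, a related shear-responsive factor, had a ratio of 1.39 (1.29 to 1.495). Of 5 enzyme genes of selectin ligand synthesis at 1 CPM or more, 1 was higher (median 0.27), or 20% against 19.3% of all genes. The higher gene was Gcnt1 at 4.09-fold (3.23 to 5.26), while B4galt1 had 0.978 (0.914 to 1.05). Of 4 other adhesion genes at 1 CPM or more, Alcam was higher at 2.39-fold (1.64 to 3.59), Mcam, which mural cells share, was lower at 2.01-fold (1.85 to 2.18), and Bcam had 1.37 (1.30 to 1.44), with a median of 0.44.

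Some of the 10 genes are also made outside endothelium, so the markers of other cells are given beside them. Platelets hold Selp, Vwf and Pecam1 transcripts: of 5 platelet genes at 1 CPM or more, 1 was higher (Ppbp, 2.39-fold, 1.56 to 3.79). All 10 listed platelet genes summed to 31.2 CPM in the dioscin library and 25.02 in the TAC library. Pf4, the most abundant, had a ratio of 1.14 (0.926 to 1.40), and Gp1bb had 0 counts in both libraries and Gp6 in the TAC library. Of 6 general leukocyte genes 2 were lower, Coro1a at 2.29-fold (1.94 to 2.71) and Cd52 at 2.22-fold (1.78 to 2.80), and none was higher. Ratios were above 1 for 3 of the 6 and below 1 for 3 (median log2 ratio -0.31). Cd53 had 1.65 (1.34 to 2.05) and Laptm5 1.30 (1.12 to 1.51), both named after their values were seen, and Tyrobp had 1.01 (0.815 to 1.26). The leukocyte genes summed to 87.0 CPM in the dioscin library and 112 in the TAC library. Of 8 macrophage genes, which can accompany Vcam1, none was higher and 1 was lower by the size rule. Ratios were above 1 for 7 of these 8 genes and below 1 for 1 (median log2 ratio 0.54). Their levels summed to 311 CPM in the dioscin library and 220.2 in the TAC library.

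Vcam1 and Icam1 are also made by mesothelium and mural cells. All 5 atrial muscle genes were higher, with 17319 CPM summed in the dioscin library and 592 in the TAC library and a median log2 ratio of 11.14 (10.17 with Mybphl, at 0 counts in the TAC library, taken at a floor of 3 counts). Of 10 mesothelial genes 9 were higher, with 170.3 CPM summed in the dioscin library and 19.2 in the TAC library (median 5.70, or 4.74 at the floor), and Krt8, Krt18 and Bnc1 had 0 counts in the TAC library. All 4 fat cell genes at 1 CPM or more were higher (median 5.86, or 3.53 at the floor). Each of the 4 reached 1 CPM only in the dioscin library, so the filter partly set that count and median. Myl7, Sln and Mybphl of atrial muscle and most of the higher mesothelial genes also reached 1 CPM only in the dioscin library. The 6 listed fat cell genes summed to 22.4 CPM in the dioscin library and 0.347 in the TAC library. Plin1, Cidec and Retn were at 0 in the TAC library and Lep at 0 in both. Of 10 mural cell genes 1 was higher and 2 were lower, with 1486 CPM summed in the dioscin library and 1539 in the TAC library. Of 7 fibroblast genes 2 were higher, with 1559 CPM summed in the dioscin library and 714 in the TAC library. Dcn, the matrix proteoglycan decorin, held 1062 CPM of that sum in the dioscin library and 259 in the TAC library. Of the 7 fibroblast ratios 6 were above 1 and 1 was below (median log2 ratio 0.46). The collagen genes of the list had ratios of 1.05 (0.966 to 1.14) for Col1a1, 1.38 (1.29 to 1.48) for Col1a2 and 0.797 (0.762 to 0.834) for Col3a1. These collagen genes were named after their values were seen. All 8 heart muscle genes reached 1 CPM and none passed the rule (median 0.40). The part of these cells in the ratios of Vwf, Vcam1, Pecam1, Selp and the endocardial genes was not tested.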

How the data were processed

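The authors deposited raw counts of reads per gene, 1 file per library. HISAT2 2.1.0, HTSeq and the mm10 build are named, with no order or settings, per the submitters' processing notes. The HTSeq version, annotation release and strand setting are not given in the sources used here. Per the labels' protocols, Trizol RNA went into Illumina TruSeq RNA libraries. Lines of reads given to no gene were left out: 30.0% of reads in both libraries had no feature, and 36.5% of the dioscin library and 38.2% of the TAC library aligned to several places.

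Gene names, merged exon lengths and coordinates came from GENCODE M21 on GRCm38 (55141 of 55401 identifiers matched without version). TMM scaling used edgeR 4.0.16 in R 4.3.3, and a pseudocount of 0.5 entered the log2 ratios. Calls and intervals were tested on simulated data with counting error only, so differences between mice were no part of that test. Levels per kb have exact Poisson intervals. Gene GC content was that of the longest transcript. Promoter and microRNA sequences came from RefSeq.

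Alternatives were DESeq2 1.42.0 size factors, other scalings, filters, fold limits, a pseudocount of 5, a length and GC trend removed, and, chosen after seeing the data, counts of overlapping opposite-strand non-coding genes added. The genes named from lists were up to 2 past the size rule whose nearer interval limit lay farthest from 1, and the most abundant per length over the mean of both libraries. For the lists of platelets, leukocytes, macrophages, atrial muscle, mesothelium, mural cells, fibroblasts, fat and heart muscle, summed levels are given in place of some names. The 10 genes and all lists were chosen with earlier results of these data known. PCR copies were not told apart. Some genes of the lists are not reported here by name.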

Additional observations from a re-analysis of the deposited data

How the results depend on the processing

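Each of the 10 genes was recomputed under 7 alternatives (4 scalings, a length and GC trend, a pseudocount of 5 and the pan-endothelial median as zero), which gave 70 ratios. In 69 of them the call by the size rule was as reported. The exception was Pecam1 with scaling by counts outside mitochondrial genes (log2 ratio 0.93), a scaling that moved the median log2 ratio of all genes by -0.21. No gene that was called changed direction. With the rule at 3-fold, 3 of the 10 genes were called, all higher, and 0 were lower. Among protein-coding genes 17.1% were called. Of 154 recomputed list counts, 144 were within 1.5 times of that reported. Ratios ran from 2.83 to 3.97 for Vwf, 2.99 to 4.18 for Vcam1 and 4.04 to 7.44 for Selp. They ran from 1.90 to 2.66 for Pecam1 and 0.315 to 0.441 for Egfl7. With opposite-strand non-coding counts added, chosen after seeing the data, that of Selp was 2.68, which is below 3-fold. Those counts can hold the non-coding genes' own reads. No paired analysis was possible because each group had 1 library. Differences between mice were not measured, and depth limits Selp and Sele.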
